A study of Mus musculus with 8 samples.

Results

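Pyhin1 and its relatives of the IFI200 family were followed in common myeloid progenitors (CMPs) of young and old mice. CMPs are bone marrow cells that give rise to the myeloid lineages, and they were sorted here as Lin-, cKit+, Sca-1-, CD34+, FcγRlow cells. All mice were untreated wildtype C57BL/6J animals. The labels give an age of 2 to 3 months for the 4 young samples and of 22 to 24 months for the 4 old samples, whereas the description of the series gives 3 to 4 and 22 to 26 months. Each sample was hybridized to 1 Agilent array with 1 dye. The labels do not name the mouse behind each array or its sex, so p-values measure the spread between these 8 samples only. The arrays lay on 2 slides, with young arrays 3 and 4 and old arrays 2 and 4 on slide 1, and young arrays 5 and 6 and old arrays 3 and 5 on slide 2.

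The members were all non-control probes that the array design assigns to Pyhin1, Ifi202b, Ifi203, Ifi204, Ifi205, Mnda, Mndal or Aim2. These were 14 of 55681 probes, for 7 of the 8 gene names. No probe carries the name Ifi205. Pyhin1 itself was chosen by its lower level in old mice in this same comparison, so its age difference is described below and not tested. The other genes were taken with it by family name. A probe entered the fit if 4 or more arrays read it well above background, which left 10 of these 14 and 33472 probes in all.

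The IFI200 proteins are products of a gene cluster on mouse chromosome 1 whose members are induced by interferons. Most of them carry a pyrin domain, which binds other pyrin domains, and 1 or more HIN domains, which bind DNA. Aim2 is the best known of them, a sensor of DNA in the cytosol that assembles an inflammasome with the adaptor Pycard and caspase-1. Ifi204 has been studied for its part in DNA sensing and in the differentiation of myeloid cells, and Ifi202b lacks the pyrin domain. Current RefSeq annotation names the genes by numbers, so that the array's Pyhin1 is now Ifi209 and the array's Mnda is now Ifi211. The Mnda probe is also assigned to the transcript of Ifi205, and the 2 genes cannot be told apart by it.

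Pyhin1 was lower on every old array than on every young array at all 3 of its probes. Levels are given as log2 of the intensity minus the 75th percentile of the array, and levels of different probes are not comparable. The brightest probe, A_55_P2035509, read 0.40, -0.35, -1.38 and -1.22 on young arrays 3, 4, 5 and 6. It read -3.0, -2.89, -3.29 and -2.41 on old arrays 2, 3, 4 and 5. The young arrays of slide 1 thus stood highest, and the old arrays lay close together. The young arrays averaged -0.64 ± 0.83 (SD, n = 4) and the old arrays -2.90 ± 0.37 (SD, n = 4), a log2 difference of -2.26 ± 0.38 (SE), or 4.80-fold. All 8 arrays read it well above background.

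The other Pyhin1 probes were dimmer, and in old mice both were well above background on array 5 alone. Probe A_55_P2036357 read -2.30, -2.91, -3.33 and -3.68 on the young arrays and -6.47, -5.88, -6.58 and -4.66 on the old arrays, in the same order of arrays. Probe A_55_P1974178 read -1.48, -2.27, -3.30 and -3.55 on the young and -6.34, -5.21, -4.93 and -3.59 on the old arrays. At the latter, old array 5 and young array 6 almost met. The log2 differences were -2.84 ± 0.44 (SE) and -2.37 ± 0.60 (SE). Both were taken against signals not well above background on 3 of the 4 old arrays, and both probes entered the fit mainly through the young arrays. Probe A_55_P2036357, of 60 bases, is placed at chr1:175572633-175572691 of build mm9, on the plus strand, an interval slightly shorter than the probe. It is shown, 5′ to 3′, since its Pyhin1 difference was the largest in value. Of its 3 reading frames, 2 are free of stop codons.
Pyhin1 A_55_P2036357: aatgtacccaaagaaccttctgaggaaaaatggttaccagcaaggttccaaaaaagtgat

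The size of the Pyhin1 difference depended on the slide and on the background correction, and its direction on neither. At the brightest probe, the log2 difference was -3.17 on slide 1 and -1.35 on slide 2, with 2 arrays per age on each. At A_55_P2036357 it was -3.92 and -1.77, and at A_55_P1974178 it was -3.76 and -0.97. With a model-based background correction that keeps dim signals away from 0 (normexp with an offset of 50), the 3 differences shrank to -1.46, -0.62 and -0.69, in the order brightest, A_55_P2036357 and A_55_P1974178. On the linear scale the brightest probe then differed 2.75-fold in place of 4.80-fold. The scanner's intensities at A_55_P2036357 were 35.1 to 84.3 in young and 3.03 to 16.8 in old mice.

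**Figure D1:**
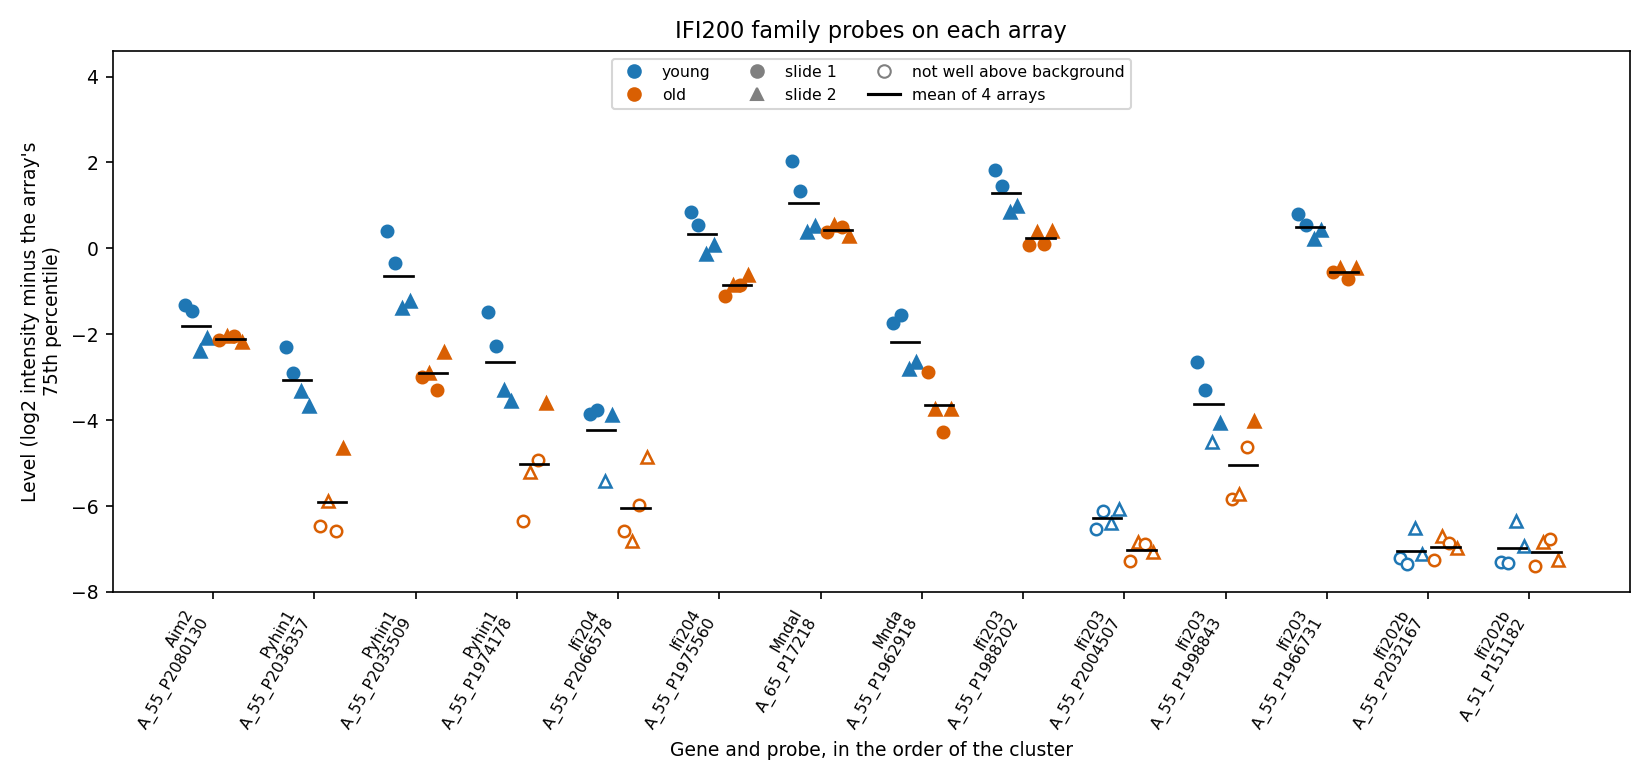
Level of each of the 14 member probes on the 8 arrays (y axis, log2 intensity minus the 75th percentile of the array), with young arrays in blue, old arrays in orange, slide 1 as circles, slide 2 as triangles and bars at the means of 4 arrays. Open symbols were not well above background, as on 3 of the 4 old arrays at 2 of the Pyhin1 probes and on all 8 arrays at both Ifi202b probes.

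All 7 tested probes of the other members were lower in value in old mice, and none passed the threshold of an adjusted p under 0.05 with a fold change of at least 1.5 in limma. Over all tested probes, 11 or 0.0329% were called lower and 53 or 0.158% were called higher in old mice. With quantile normalization the split over all probes was 3 lower and 58 higher. At an unadjusted p under 0.05 in limma, 5 of the 7 member probes were lower, beside 2.73% of all tested probes. By the methods' t-test 4 were, with 0 called after adjustment. The 5 probes belong to Ifi203, Ifi204 and Mnda only, and probes of the same gene are not independent readings. The median log2 difference of the 7 probes was -1.05, beside -0.02 over all tested probes. Of these 7 probes, 1 of Ifi203, also counted in the 5, entered the fit mainly through the young arrays. The other 6 were well above background on all 8 arrays. At 4 of these 6, every old array was below every young array, which held for 1.57% of all tested probes.

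Ifi204 was lower in all old samples at the probe that measured it on every array. Probe A_55_P1975560 read 0.84, 0.55, -0.12 and 0.08 on the young arrays and -1.11, -0.85, -0.86 and -0.63 on the old arrays. The groups did not overlap, and the log2 difference was -1.20 ± 0.24 (SE, adjusted p = 0.124, limma), or 2.29-fold. Its other probe, A_55_P2066578, was well above background on 3 young and 0 old arrays and was not tested. There the mean of old mice was lower by 1.55-fold, with each old array held to at least its lowest signal above background. Young array 5 was not well above background either and kept its value, so this is not a strict minimum. The groups overlapped, since young array 5 was below old array 5, and with normexp the means differed 1.19-fold.

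Ifi203 has 4 probes, and the 2 bright ones gave nearly the same difference. Probe A_55_P1966731 read 0.80, 0.54, 0.23 and 0.42 on the young arrays and -0.54, -0.47, -0.71 and -0.47 on the old arrays. Probe A_55_P1988202 read 1.83, 1.46, 0.84 and 1.0 on the young arrays and 0.09, 0.38, 0.09 and 0.40 on the old arrays. At both, all old arrays were lower than all young arrays. The log2 differences were -1.05 ± 0.18 (SE, adjusted p = 0.0750) and -1.04 ± 0.24 (SE, adjusted p = 0.173). The former was called with array weights and with trended, robust variances, and the latter with the normexp correction. Probe A_55_P1998843 cleared the background on 3 young and 1 old arrays and differed by -1.42 ± 0.50 (SE, adjusted p = 0.531) with overlapping groups. This shrank to -0.26 with normexp. No array read the last one, A_55_P2004507, well above background.

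Mnda read -1.74, -1.54, -2.80 and -2.65 on the young arrays and -2.89, -3.74, -4.27 and -3.73 on the old arrays. Young array 5 and old array 2 lay close to each other, and the groups did not overlap. The log2 difference was -1.47 ± 0.37 (SE, adjusted p = 0.221), and with normexp it was -0.62. For Mndal, a neighbour of Mnda named for its likeness to it, the difference rested on slide 1. Its probe read 2.03, 1.34, 0.38 and 0.52 on the young arrays and 0.37, 0.54, 0.51 and 0.28 on the old arrays. The 2 young arrays of slide 1 stood above the rest and the other 6 arrays overlapped, so that the log2 difference of -0.64 ± 0.34 (SE, adjusted p = 0.918) was -1.25 on slide 1 and -0.04 on slide 2.

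Aim2, the inflammasome member of the family, differed least among the tested members. It read -1.32, -1.47, -2.38 and -2.09 on the young arrays and -2.13, -2.05, -2.05 and -2.18 on the old arrays. Young array 5 was the lowest of all 8, and the groups overlapped. The log2 difference of -0.29 ± 0.25 (SE, adjusted p = 0.998) was -0.69 on slide 1 and 0.12 on slide 2. Ifi202b could not be compared, since neither of its probes was well above background on any array, with scanner intensities of 2.48 to 4.34.

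At all 10 tested member probes, Pyhin1 included, the log2 difference was more negative on slide 1 than on slide 2. Over the 7 tested probes of the other members, the median was -1.56 on slide 1 and -0.58 on slide 2. Over all tested probes these medians were 0.05 and -0.07. Within slide 2 alone, Aim2 was higher in old mice by 0.12, Mndal was at -0.04 and the other tested probes were lower. Pyhin1 is among the latter, and it was chosen by its difference over these same arrays. With the slide as a block in the fit, none of the 10 probes was called.

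**Figure D2:**
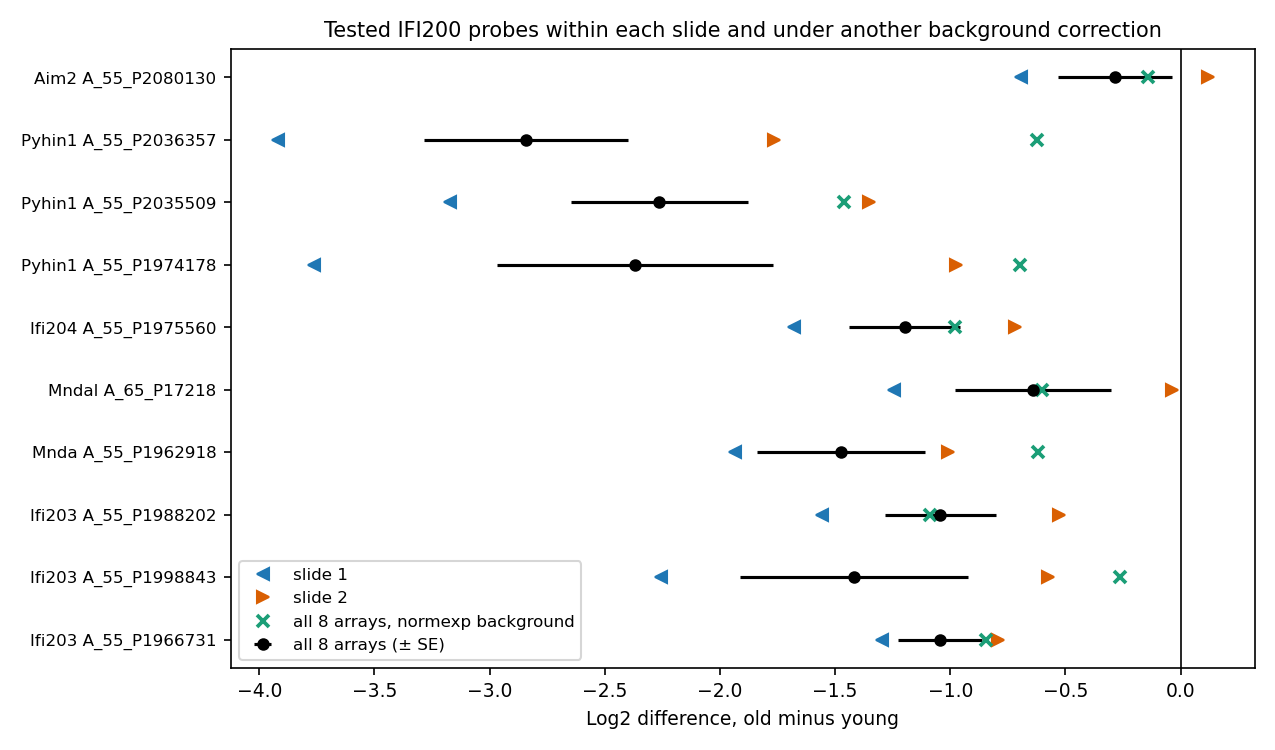
Log2 difference, old minus young (x axis), for the 10 tested member probes (y axis): over all 8 arrays with its SE (black), within slide 1 (blue, 2 against 2 arrays), within slide 2 (orange, 2 against 2 arrays) and with normexp (green crosses). Slide 1 lies to the left of slide 2 at every probe, and the crosses of the dim Pyhin1 probes lie at -0.62 and -0.69.

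Most of the other probes measured in the cluster were lower in value in old mice, and those on either side of it went both ways. The cluster, taken from the Aim2 probe to the Ifi202b probes, holds 18 tested probes that are no members. Of these, 3 were above background on more young than old arrays and so entered the fit mainly through the young arrays. The other 15 were well above background on all 8 arrays. Of these 15, 13 were lower in value in old mice, beside 53.2% of all tested probes, with a median log2 difference of -1.03. Every old array was below every young array at 11, beside 1.57% of all tested probes. Every old array was above at 1, beside 2.87%. The 15 probes carry only 7 gene names, and several lie side by side on the same strand, so they are not independent readings. The array design places 14 of the 18 on candidate long non-coding RNAs between Pyhin1 and Mndal. Of the 14, 12 were well above background on all arrays and were lower in value, and the other 2 were among those that entered mainly through the young arrays. On 13 of the 14 the design sets the RNA on the minus strand. Of these, A_30_P01017895 at chr1:175655046-175655105 was called lower, with levels of -2.17 ± 0.24 in young and -3.42 ± 0.20 in old mice (SD, n = 4 each, adjusted p = 0.0457). This call was lost on leaving out any of the 8 arrays and with the slide as a block, and with normexp the log2 difference shrank from -1.25 to -0.56. The probes for candidate non-coding RNAs lie close to or within IFI200 genes. Of them, A_30_P01019537 has the same coordinates and strand as probe A_55_P2081105 of AI607873 (Ifi207), at chr1:175653663-175653722. The log2 differences at this shared place were -1.36 ± 0.46 and -0.96 ± 0.74 (SE). Whether the other probes measure RNAs separate from the IFI200 genes was not tested.

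Within 1000000 bases on either side of the cluster, 21 probes were tested, of which 9 were lower and 12 higher in value, with a median of 0.13. None of the 21 had every old array below every young array, and 3, those of Fcer1a, Ackr1 and Dusp23, had every old array above, beside 2.87% of all tested probes. Fcer1a, which encodes the alpha chain of the high-affinity IgE receptor, rose by 2.50 ± 0.35 on the log2 scale (SE, adjusted p = 0.0293), a call lost without young array 3, 4 or 6 and without old array 3, 4 or 5, and with the slide as a block. Ackr1, an atypical chemokine receptor listed on the array as Darc, was 1.25 ± 0.24 higher (SE, adjusted p = 0.107). Dusp23, named after its values were seen, was 0.40 ± 0.18 higher (SE, adjusted p = 0.780). Ccdc19 was 1.01 ± 0.38 higher with overlapping groups (SE, adjusted p = 0.613). All 4 genes lie on the Aim2 side of the cluster.

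**Figure D3:**
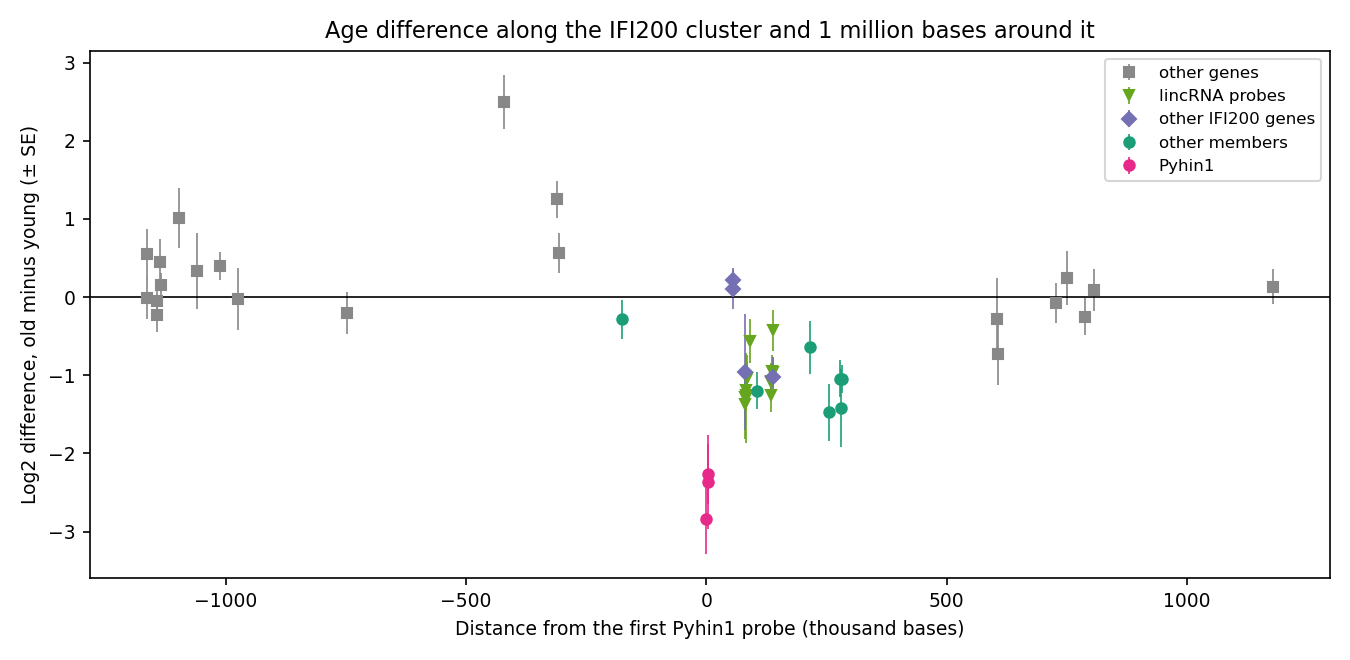
Log2 difference, old minus young, with its SE (y axis) for each tested probe, by its distance from the first Pyhin1 probe (x axis, kilobases). The 3 probes of Pyhin1, the gene chosen by this difference, are drawn at -2.26 to -2.84, of which 2 were above background on 1 old array only and lie at -0.62 and -0.69 with normexp. Most of the other cluster probes lie near -1, and Fcer1a stands highest at 2.50.

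The other IFI200 genes of the cluster, named on the array by older symbols, were measured by 12 probes, and 4 of these were tested. Gm16340, now Ifi203-ps, was lower on all old arrays, by -1.02 ± 0.25 (SE, adjusted p = 0.211). AI607873, now Ifi207, differed by -0.96 ± 0.74 (SE, adjusted p = 0.998) with overlapping groups and was above background on 3 young and 1 old arrays. Pydc3, now Ifi208, went the other way in value, with differences of 0.10 ± 0.25 and 0.22 ± 0.16 (SE, adjusted p = 0.998 at both). At the latter probe every old array was above every young array, the nearest reading 2.79 and 2.78. The other Pydc3 probes were above background on no array. The probes of Gm4955 (Ifi206), BC094916 (Ifi214) and Pydc4 (Ifi213) were above background on at most 1 array. Whether Aim2 and Pydc3 differed from the other genes of the cluster in their age difference was not tested.

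The probes most like Pyhin1 over the 8 arrays came from the same cluster. Among the tested probes of all other genes, the 5 with the highest correlation with A_55_P2035509 were 3 probes for candidate non-coding RNAs of the cluster (r = 0.994, 0.988 and 0.986), A_55_P1988202 of Ifi203 (r = 0.991) and A_55_P1975560 of Ifi204 (r = 0.986). The 3 Pyhin1 probes correlated with each other at 0.92 to 0.96 over both ages, and at 0.78 to 0.88 within age. These values are descriptions over 8 arrays that share 2 slides and 2 ages. Member probes were compared with probes of other gene names for exact shared runs of bases only. Whether a probe also binds RNA of related genes was not tested. Of the 14 member probes, 3 shared a run of 16 or more bases with a probe of another gene name, at most 18 of 60 bases. The Ifi204 probe was among these, with 18 bases in common with a probe for a candidate non-coding RNA of the cluster.

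The start sites of these genes were compared in the RefSeq promoter table of build GRCm38.p6, which holds 250 bases before and 50 after each start. It has 14 entries for 12 of the IFI200 genes and none for Ifi204 or Ifi203-ps. A 9-base run, AAATCGAAA or AAATTGAAA, was seen in 10 of the 14 windows, on the gene's strand, and in 0.539% of all 32851 windows on either strand. The run was chosen after the windows had been read, and several windows are near copies, so the count is a description of related sequence. It holds AANNGAAA, the core letters bound by interferon regulatory factors, which was found on either strand in 11 of the 14 windows and in 23.9% of all. The longer GAAANNGAAA, which overlaps the same letters and resembles an interferon-stimulated response element, was in 10 of the 14 and in 3.44% of all, and not in that of Pyhin1. The 36 bases around the run are shown 5′ to 3′ on the gene's strand for the 5 members that have it, with the run in capitals.
Pyhin1 (chr1:173630768-173630803, plus strand): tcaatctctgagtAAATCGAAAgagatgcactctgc
Mndal (chr1:173880200-173880235, minus strand): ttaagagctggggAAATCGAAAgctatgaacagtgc
Mnda (chr1:173913060-173913095, minus strand): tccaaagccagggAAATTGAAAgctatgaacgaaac
Ifi203 (chr1:173942504-173942539, minus strand): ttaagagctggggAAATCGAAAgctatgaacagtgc
Ifi205 (chr1:174031866-174031901, minus strand): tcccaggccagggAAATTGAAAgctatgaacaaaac

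The run begins 78 bases before the start of Pyhin1, 35 before that of Mndal, 36 before that of Mnda, 34 before that of Ifi203 and 133 before that of Ifi205. Mndal and Ifi203 have the same 36 letters there, and each has a further start whose window lacks the run. The windows of Aim2 and Ifi202b hold neither the run nor AANNGAAA, and those of Ifi206, Ifi207, Ifi208, Ifi213 and Ifi214 hold the run. Whether these letters bear on the array levels was not tested. The Ifi208 and Ifi213 windows have the same letters around it, shown here for that reason.
Ifi208 (chr1:173673595-173673630, plus strand): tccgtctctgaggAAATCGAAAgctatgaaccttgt
Ifi213 (chr1:173599322-173599357, minus strand): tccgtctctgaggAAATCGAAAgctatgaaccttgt

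The genes of the pathways in which IFI200 proteins work differed in both directions. Each gene was taken at its brightest tested probe. In the 4 pathway lists together 0 genes were called in either direction by limma under the main settings. Over all genes, 4 of 23155 or 0.0173% were called lower and 44 or 0.19% higher, while 52.4% were lower and 47.6% higher in value. The median log2 difference over all genes was -0.01.

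The list of inflammasome and pyroptosis genes held 23 names, synonyms included, of which 22 were on the array. Of these, 19 were tested, 11 were lower and 8 higher in value, and the median was -0.04. The adaptor Pycard was at 4.12 in both ages, and the protease Casp1 differed by -0.39 ± 0.19 (SE, adjusted p = 0.868). The largest differences were those of Mefv, which encodes pyrin (-1.65, adjusted p = 0.165), Nlrp6 (0.98, adjusted p = 0.806) and Nlrc4 (-0.90, adjusted p = 0.449), the latter pair being inflammasome sensors. With normexp, Mefv was called lower. At an unadjusted p under 0.05, 3 genes were lower and 1 higher, beside 2.66% and 3.96% of all genes.

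The list of cytosolic DNA sensing held 24 names, synonyms included, of which 21 were on the array. All 21 were tested, with 10 lower, 11 higher and a median of 0.02. Tmem173, the STING adaptor to which several DNA sensors signal, was lower on all old arrays by -0.60 ± 0.18 (SE, adjusted p = 0.362). Its difference was -0.52 on slide 1 and -0.68 on slide 2. The kinase gene Ikbke differed by -0.76 (adjusted p = 0.634) and the DNA repair gene Xrcc5 by 0.82 (adjusted p = 0.249). At an unadjusted p under 0.05, 2 genes were lower and 1 was higher.

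Of the interferon receptors, signalling and response genes, 38 of 39 were tested, with 17 lower, 21 higher and a median of 0.05. At an unadjusted p under 0.05, 4 were lower and 4 were higher. The largest difference was that of the antiviral gene Mx1, which was lower on every old array by -1.96 ± 0.52 (SE, adjusted p = 0.262), at 4 young and 3 old arrays above background. The chemokine gene Cxcl10 differed by -0.97 (adjusted p = 0.921), and Irf8, a transcription factor of the monocyte lineage, by -0.71 (adjusted p = 0.394). Other genes induced by interferon differed in the opposite direction in value, with 0.23 for Isg15 and 0.52 for Usp18 (adjusted p = 0.998 and 0.700). Ifit3 was not above background on any array. The list as a whole thus had no common direction.

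Of the known partners of IFI200 proteins, 16 of 17 were tested, with 6 lower, 10 higher and a median of 0.11. The largest differences were 0.72 for Gata2, 0.56 for Fos and 0.54 for Id2, all transcription regulators (adjusted p = 0.704, 0.570 and 0.950). At an unadjusted p under 0.05, 0 were lower and 3 were higher.

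**Figure D4:**
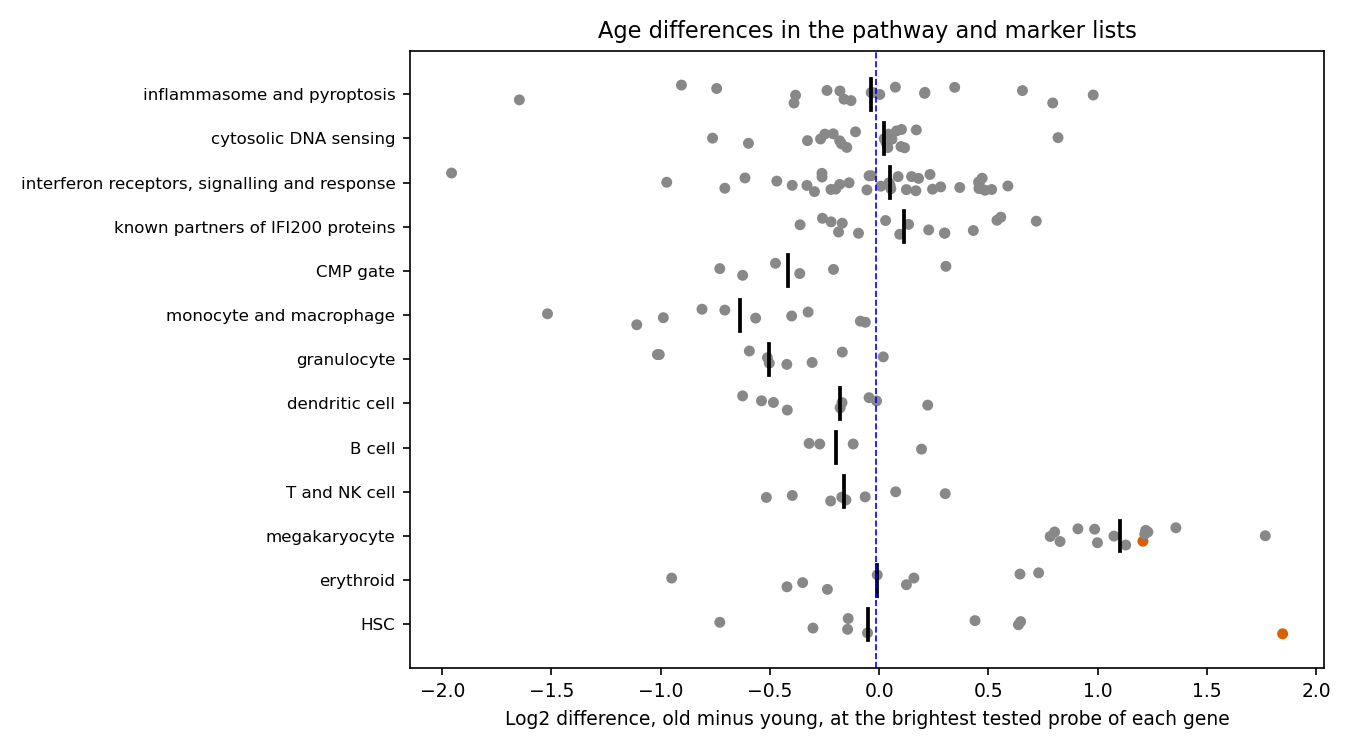
Log2 difference, old minus young (x axis), of each tested gene at its brightest probe in the pathway and marker lists (y axis), with orange points for called genes, a bar at the median of each list and a dashed line at the median of all genes (-0.01). The megakaryocyte genes lie to the right of 0, and the monocyte and macrophage genes to the left.

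Markers of other cell types also differed in value between the ages. None of the 6 tested genes of the sort gate was called, and at an unadjusted p under 0.05 only Ly6a, which encodes Sca-1, was lower. The differences were 0.31 for Kit, -0.21 for Cd34, -0.47 for Fcgr3, -0.36 for Fcgr2b, -0.73 for Ly6a and -0.62 for Flt3. Il7r was above background on 1 of 8 arrays. Of the monocyte and macrophage genes, all 10 tested were lower in value and 6 had every old array below every young array, beside 1.66% of all genes, with a median log2 difference of -0.64. Their summed level ran from 190 to 219 in young and from 90.2 to 145 in old mice, relative to the 75th percentile of each array. The largest differences were -1.52 for Ly6c1, -1.11 for F13a1 and -0.99 for Ccr2 (adjusted p = 0.220, 0.154 and 0.282). With normexp, Ly6c1 was called lower.

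The granulocyte genes were lower at 8 of 9 tested, with a summed level of 767 to 1055 in young and 549 to 670 in old mice, with a median difference of -0.50, led by Elane (-1.01), Prtn3 (-1.01) and Mpo (-0.59). All 14 megakaryocyte genes were higher in value, and 12 had every old array above every young array, beside 3.2% of all genes, with a median of 1.10. Their summed level was 101 to 200 in young and 289 to 384 in old mice. Gp9 was called, with a rise of 1.21 (adjusted p = 0.0327), a call lost on leaving out any of the 8 arrays and with the slide as a block. Pf4 was called higher only with normexp and with trended, robust variances. Of the stem cell genes, Hoxb5 was called, with a rise of 1.85 (adjusted p = 0.00707), at a probe not well above background on all 8 arrays. This call was kept on leaving out any of the 8 arrays and lost with normexp, where the rise was 0.90. The median of the 9 tested stem cell genes was -0.05. The summed dendritic, B, T and NK and erythroid levels overlapped between the ages. Of their genes 0 were called, and at an unadjusted p under 0.05 1 gene was higher, in the erythroid list. The B cell genes Ms4a1, Pax5, Ebf1 and Igll1, the NK cell gene Ncr1 and the dendritic cell gene Xcr1 were not above background on any array. The part of these shifts in the IFI200 values was not tested, and in sorted bulk RNA fewer cells of a type and less RNA per cell cannot be told apart.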

How the data were processed

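The authors sorted CMPs, labelled total RNA with Cy3 and scanned 1-colour Agilent arrays with Feature Extraction 10.7.3.1. The deposited scanner files hold background-subtracted intensities on a linear scale, with flags for outliers, saturation and signal well above background, and probe coordinates on mm9. A deposited series table holds log2 values from GeneSpring, which the authors scaled by the 75th percentile and set against the median over samples. These values were an alternative (r = 0.999 with the centred intensities on each array over 39156 single-probe lines, column medians of -0.11 to 0.15).

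From the intensities, log2 minus the 75th percentile of the array (290 to 565 in intensity) was taken without outlier spots, and spots of a probe were averaged. No spot was saturated, and between 55.6% and 63.2% of probes were well above background. The number of arrays limits the precision. Probes well above background on at least 4 arrays were tested with limma 3.58.1 in R 4.3.3 (data.table version 1.17.8, figures and lists in Python 3.11.15), with Benjamini-Hochberg adjustment over all probes. A probe was called at an adjusted p under 0.05 and a fold of at least 1.5. For the 1.55-fold value of Ifi204, where no old array was above background, each old array took its own value or its lowest signal above background, whichever was higher. The young arrays kept their measured mean over 4 arrays. The fit was tested on simulated data. Gene names are those of the array, updated through RefSeq accessions and synonyms. The study gives 3 mice per age without naming arrays, so all 8 were used. Named genes were all members, per list the called genes and the 3 with the largest difference, and per locus likewise. Genes named outside this rule include Pycard, Casp1, Isg15, Usp18, Dusp23 and those of the sort gate. Members and lists were chosen with earlier results of these data known. Alternatives were other background corrections, scalings, filters, variance models, blocks by slide or replicate number, and leaving out arrays.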

Additional observations from a re-analysis of the deposited data

Results flagged for a closer look

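Among 28 groups of 4 arrays over the 14 member probes, 1 held an array that stood far from the other 3, where chance gives about 1 in 20. At the dim Ifi204 probe A_55_P2066578, young array 5 read -5.43, against -3.89 for the nearest and -3.76 for the highest young array. It was the young array on which this probe was not well above background, and 55.6% of all probes were well above background on it, the lowest share of the 8 arrays.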

How the results depend on the processing

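All 7 tested probes of members other than Pyhin1 stayed lower in old mice under each of the 21 or 22 alternatives run on them. None was called higher. The 16 choices below were counted as 1 by their median. The Pyhin1 probes stayed lower too, but the gene was chosen by this difference. The alternatives draw on the same 8 arrays. Other members called lower numbered 0 in most settings and 1 with normexp, with trended and robust variances and with array weights. The Pyhin1 probe past the threshold, on which the gene was selected, stayed past it in 5 of 20 alternatives, those choices not counted, among them leaving out old array 5 and none of the other 7 arrays. The Pyhin1 differences with normexp were -1.46, -0.62 and -0.69. Leaving out each array in turn gave -2.51 to -1.92 at the brightest Pyhin1 probe, -0.87 to -0.32 for Mndal and -0.47 to -0.12 for Aim2, the extremes of both being those without young array 5 and without young array 3. Hoxb5 lost its call with normexp (0.90), the replicate block and the methods' t-test. Over all probes, the counts higher and lower were 82 and 22 with normexp, 58 and 3 with quantile normalization, 63 and 5 with a shift to the median, which moved the median of all probes from -0.02 to 0.10, 26 and 2 without a filter, 33 and 7 with all 8 arrays above background, 30 and 2 with at least 1 array, 85 and 16 with trended variances, 85 and 31 with array weights, 35 and 4 with the slide as a block, 57 and 6 in the authors' table, and 0 and 0 by the methods' t-test. Choosing 3 arrays of each age gave medians of 16.5 and 2 over 16 choices, and leaving out 1 array gave 24 to 40 higher and 2 to 6 lower. With the replicate number as a block the counts were 12 and 1, with Fcer1a, Gp9 and A_30_P01017895 no longer called, and numbers shared between the ages correlated at -0.09, -0.14 and 0.15, so they do not pair the samples. The cause of these changes was not tested.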
